A study of Mus musculus with 9 samples.

Results

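Atf4 is the transcription factor that cells use when amino acids run short or when protein folding in the endoplasmic reticulum fails. Stress kinases phosphorylate the initiation factor eIF2alpha, which slows most translation but favours translation of the Atf4 message, and Atf4 then switches on genes for amino acid synthesis, amino acid uptake and redox balance. Much of its control therefore lies in translation, which a transcript array does not measure. The 10 genes of this response were followed by name, namely Atf4, Atf5, Ddit3, Trib3, Chac1, Slc7a11, Asns, Phgdh, Psat1 and Sesn2, and all 10 of 10 were measured among the 22180 genes of the arrays. Each gene was read from a probe set that carries its symbol alone, and where several did, from the one with the highest mean over the 9 arrays.

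RNA came from male C57BL/6J mice and their periprostatic fat, adipose tissue that lies next to the prostate. In the high fat group, 5 mice ate a diet with 60 kcal% fat (D12492i), and in the low fat group 4 mice ate a diet with 10 kcal% fat (12450Bi). Both groups started their diet at 6 weeks of age, stayed on it for 12 weeks and were killed at 18 weeks. Each array held whole frozen depot tissue of 1 mouse, so adipocytes were not separated from other cells.

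Adipocyte markers were bright in every mouse. Their mean log2 value over 9 measured markers was 12.53 to 12.70 in high fat mice and 12.76 to 12.81 in low fat mice. Of the 9, 6 were lower and 1 was higher in high fat mice, against 9.13% and 12.4% of all genes. All 10 measured macrophage markers were higher, with list means of 11.26 to 11.87 in high fat mice and 9.59 to 10.13 in low fat mice. Fibroblast markers were higher in 4 of 7, with list means of 11.26 to 11.69 in high fat mice and 10.42 to 10.79 in low fat mice. Skeletal muscle markers averaged 8.28 in high fat mouse 1, with high fat mice 2 to 5 at 6.35 to 6.46 and low fat mice at 6.39 to 7.12. Smooth muscle markers averaged 8.32 to 8.52 in high fat mice and 8.12 to 8.20 in low fat mice 1, 3 and 4, while low fat mouse 2 reached 9.82. B and plasma cell markers averaged 7.43 to 8.83 in high fat mice and 8.88 to 9.82 in low fat mice, with 2 of 5 lower. The part that these cells have in the results below was not tested. In whole tissue, fewer cells of a type and less RNA per cell cannot be told apart.

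The DNA sequence known for Atf4 binding is the C/EBP-ATF response element, whose core was searched for as TGATGNAA and TGACGNAA on both strands. The search covered RefSeq promoter windows of 300 bases (build GRCm38.p6), which were found for all 10 genes, 12 windows in all. Of 32851 such windows in the table, 3.97% held TGATGNAA and 1.59% held TGACGNAA. Of the genes, 4 held a match, and the stretches around it are shown because these genes went different ways between the diets. Capitals mark the matches, which read TTGCATCA or TTACATCA where the motif lies on the other strand.

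Asns, chr6:7693210-7693309, minus strand, the 100 bases before the gene start: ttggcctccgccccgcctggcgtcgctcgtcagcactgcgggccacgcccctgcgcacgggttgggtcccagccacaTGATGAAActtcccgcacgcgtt
Slc7a11, chr3:50443614-50443713, minus strand, the 100 bases before the start used by its only window, which lies inside the gene: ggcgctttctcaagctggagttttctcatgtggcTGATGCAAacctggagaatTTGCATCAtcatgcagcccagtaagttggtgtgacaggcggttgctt
Chac1, chr2:119350992-119351091, plus strand, 100 bases that begin at position -250 from the gene start: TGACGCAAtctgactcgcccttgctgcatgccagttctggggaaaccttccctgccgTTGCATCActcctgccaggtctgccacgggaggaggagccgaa
Trib3, chr2:152344028-152344057, minus strand, 30 bases just after the gene start: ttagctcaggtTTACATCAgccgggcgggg

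The annotated span of Slc7a11 (chr3:50364936-50499087) reaches further upstream than the start of that window, so the stretch belongs to an internal start and the far end of the gene was not searched. The Slc7a11 stretch holds the core on each strand, and the Chac1 stretch holds TGACGNAA and TGATGNAA once each. No match of either core was found in the windows of Atf4, Atf5, Ddit3, Phgdh, Psat1 and Sesn2, which says only that these letters are not in these windows. A match is a description of the sequence, and binding was not measured.

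The comparison of the diets asks which of these genes differ in this depot after 12 weeks. The values are log2 expression per probe set, and probe sets of different genes are not on a common scale, so levels are compared only within a gene. Differences are high fat minus low fat with the standard error (SE) of limma, and adjusted p is limma's p with Benjamini-Hochberg adjustment over all 22180 genes. Over all genes, 21.5% passed an adjusted p of 0.05. That split moved with scaling: 57.5% of the calls were higher with the values as deposited, 45.6% with quantile normalization repeated and 42.2% with arrays centred on their medians.

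The 10 genes did not move as a block. Slc7a11, Atf4, Chac1 and Atf5, 4 of the 10, were higher in high fat mice (12.4% of all genes were), Asns and Phgdh were lower (9.13% of all genes were), and Psat1, Ddit3, Sesn2 and Trib3 did not pass. The median difference was 0.13 over the 10 genes, against -0.0011 over all genes. The values of the diets did not overlap in 5 of the 10, whereas 20.7% of all genes had groups that did not overlap.

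**Figure D1:**
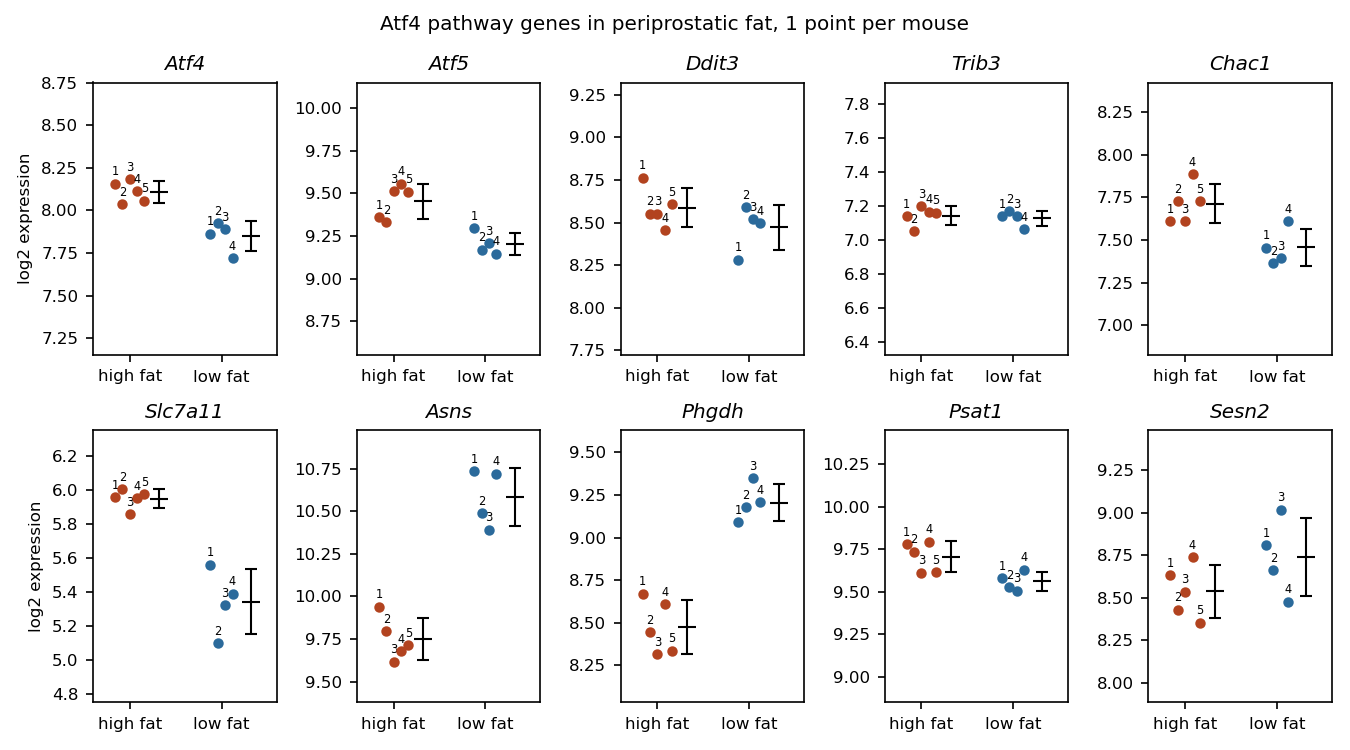
Log2 expression (vertical axis) of the 10 genes in each mouse, with high fat mice left and low fat mice right in every panel, numbers naming the mouse, and bars giving the mean with 1 SD. All panels span the same range of log2 units; Asns and Phgdh lie lower in all 5 high fat mice than in any low fat mouse, and Slc7a11, Atf4 and Atf5 lie higher.

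Atf4 itself was slightly higher at the transcript level. It measured 8.16, 8.04, 8.18, 8.11 and 8.06 in high fat mice 1 to 5, against 7.86, 7.92, 7.89 and 7.72 in low fat mice 1 to 4. Every high fat mouse lay above every low fat mouse, although the step was small. The log2 difference was 0.26 ± 0.05 (SE), a 1.20-fold increase, with a limma adjusted p of 0.00617. A two-sided exact permutation test gave p = 0.00794, the smallest that the 126 assignments of 5 and 4 mice allow.

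Atf5, a related transcription factor whose message is also favoured in translation when eIF2alpha is phosphorylated, rose by a similar amount. It measured 9.36, 9.33, 9.51, 9.56 and 9.51 in high fat mice, against 9.30, 9.17, 9.21 and 9.15 in low fat mice. The diets did not overlap, but high fat mice 1 and 2 stood close to low fat mouse 1. The log2 difference was 0.25 ± 0.06 (SE), or 1.19-fold, with a limma adjusted p of 0.0129. Gene Atf5 did not pass once quantile normalization was repeated (difference 0.21, adjusted p = 0.0505).

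Ddit3 encodes CHOP, the transcription factor that Atf4 induces under lasting stress and that promotes cell death. It measured 8.76, 8.55, 8.55, 8.46 and 8.61 in high fat mice, against 8.28, 8.59, 8.52 and 8.50 in low fat mice. The groups overlapped, with low fat mouse 1 the lowest and high fat mouse 1 the highest. The log2 difference of 0.11 ± 0.08 (SE) did not pass (limma adjusted p = 0.339), and its 95% interval ran from -0.05 to 0.28.

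Trib3, a pseudokinase induced by Atf4 and CHOP that damps Atf4 and Akt activity, was nearly level. It measured 7.14, 7.05, 7.20, 7.17 and 7.16 in high fat mice, against 7.14, 7.17, 7.14 and 7.07 in low fat mice. The difference of gene Trib3 was 0.014 ± 0.042 (SE) with a 95% interval from -0.08 to 0.11 and a limma adjusted p of 0.858. Its sign turned with quantile normalization repeated (-0.033), with arrays centred on their medians (-0.030) and without low fat mouse 4 (-0.0068).

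**Figure D2:**
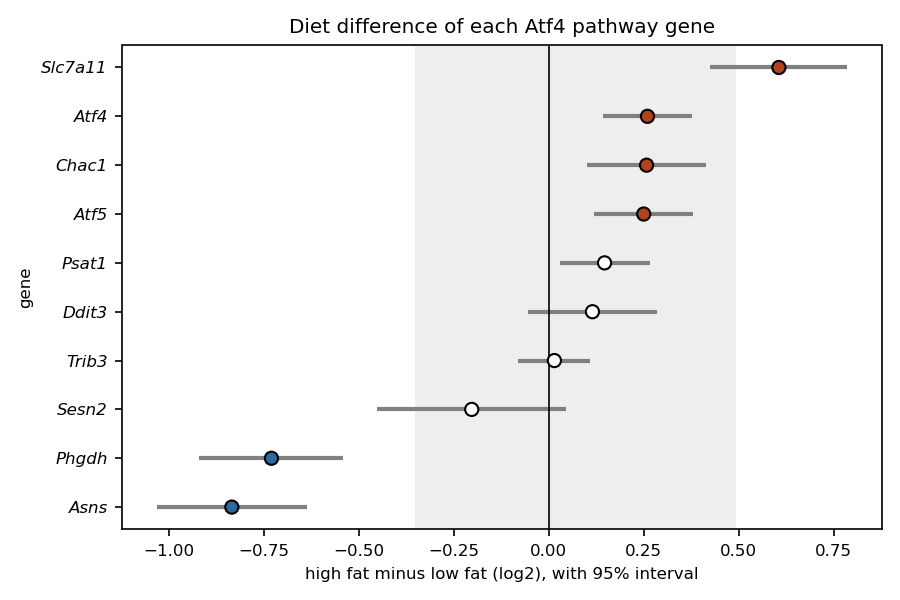
Difference between diets (high fat minus low fat, log2, horizontal axis) of each gene with its 95% interval; red points passed as higher, blue points passed as lower and white points did not pass. The grey band spans the 5th to the 95th percentile of the differences of all genes, -0.35 to 0.49, and Slc7a11, Phgdh and Asns lie outside it.

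Chac1 encodes an enzyme that breaks down glutathione and is among the most responsive Atf4 targets in cultured cells. It measured 7.61, 7.73, 7.61, 7.89 and 7.73 in high fat mice, against 7.45, 7.36, 7.39 and 7.61 in low fat mice. The deposited value was the same in high fat mice 1 and 3 and low fat mouse 4, so the groups met at that value. The log2 difference was 0.26 ± 0.07 (SE), or 1.20-fold, with a limma adjusted p of 0.0266. This call was fragile. The difference of gene Chac1 no longer passed in 10 of 21 alternatives, among them quantile normalization repeated (0.21), arrays centred on their medians (0.21) and the fits without high fat mouse 2 (0.25), high fat mouse 5 (0.25), low fat mouse 1 (0.26), low fat mouse 2 (0.23) or low fat mouse 3 (0.24).

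Slc7a11, the cystine-glutamate exchanger that brings in cystine for glutathione synthesis, showed the largest increase of the 10 genes. It measured 5.96, 6.00, 5.86, 5.95 and 5.97 in high fat mice, against 5.56, 5.10, 5.32 and 5.39 in low fat mice. The high fat mice lay close together and above all low fat mice, which were spread more widely. The log2 difference was 0.61 ± 0.08 (SE), or 1.52-fold, with a limma adjusted p of 0.000626. Its mean over all mice lay at percentile 24.8 of all genes, and no detection calls were used, so whether it lay above background was not determined. A second, dimmer probe set of Slc7a11 (17397421) showed a difference of -0.031 ± 0.045 (SE) with a limma adjusted p of 0.712 over all 33793 probe sets, so the probe sets of Slc7a11 disagreed. With the mean of both probe sets the difference of gene Slc7a11 was 0.29 and passed, but that mean includes the first probe set and is not separate support.

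Asns, asparagine synthetase, makes asparagine from aspartate and glutamine and is the classic gene that Atf4 induces when amino acids are scarce. It went the opposite way from Atf4. It measured 9.94, 9.80, 9.62, 9.68 and 9.72 in high fat mice, against 10.74, 10.49, 10.39 and 10.72 in low fat mice. All 5 high fat mice lay below all 4 low fat mice, with a wide gap between the diets. The log2 difference was -0.84 ± 0.09 (SE), which is 1.78-fold lower, with a limma adjusted p of 0.000201. It passed in all 21 alternatives, with differences from -0.91 to -0.78.

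Phgdh, phosphoglycerate dehydrogenase, catalyses the entry step from glycolysis into serine synthesis. It measured 8.67, 8.44, 8.32, 8.61 and 8.34 in high fat mice, against 9.09, 9.18, 9.35 and 9.21 in low fat mice. The diets did not overlap. The log2 difference was -0.73 ± 0.08 (SE), or 1.66-fold lower, with a limma adjusted p of 0.000306. The difference of gene Phgdh passed in all 21 alternatives, from -0.79 to -0.68.

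Psat1, the aminotransferase that acts directly after Phgdh, did not fall with it. It measured 9.78, 9.74, 9.61, 9.79 and 9.61 in high fat mice, against 9.58, 9.53, 9.51 and 9.63 in low fat mice. The groups overlapped at low fat mouse 4. The difference of 0.15 ± 0.05 (SE) pointed up and missed the threshold (limma adjusted p = 0.0801, 95% interval 0.03 to 0.27), while its exact permutation p, not adjusted, was 0.0476.

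Sesn2 encodes Sestrin2, a leucine sensor that restrains the growth kinase complex mTORC1. It measured 8.63, 8.43, 8.54, 8.74 and 8.35 in high fat mice, against 8.81, 8.66, 9.02 and 8.48 in low fat mice. The groups overlapped and varied widely. The difference of -0.20 ± 0.11 (SE) did not pass (limma adjusted p = 0.247, 95% interval -0.45 to 0.05).

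Genes around these 10 were taken from 9 lists of the pathway, which hold 140 different measured genes. Of the 140 genes, 38 were higher and 18 lower in high fat mice, to be read against 12.4% and 9.13% of all genes. The counts of each list below are to be read against the same shares. This tilt moved with scaling as it did over all genes: repeating quantile normalization gave 30 higher and 27 lower, and centring arrays on their medians gave 30 and 26. Adipocyte, macrophage, fibroblast and B and plasma cell markers differed between the diets as given above, and their part in these counts was not tested. Without high fat mice 1 and 2, whose arrays had slightly wider distributions (SD 1.87, against 1.83 to 1.84 in the other 7 arrays), 22 of the 140 were higher and 15 lower. Without these mice, 6 transporters (10 with all mice), 2 genes of glutathione and cystine handling (5) and 2 nutrient sensing genes (4) were higher. So were 1 tRNA synthetase gene (4), 1 gene of the serine route (3) and 1 of the relatives (2). In the list of eIF2alpha kinases, phosphatase subunits and Atf4 partners, 1 gene, Atf3, was higher (2), while gene Nfe2l2 lost its call (0.18). Leaving out mice also lowers precision, and no other pair of high fat mice was left out for comparison. The part of the wider distributions in the lost calls was not tested.

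**Figure D3:**
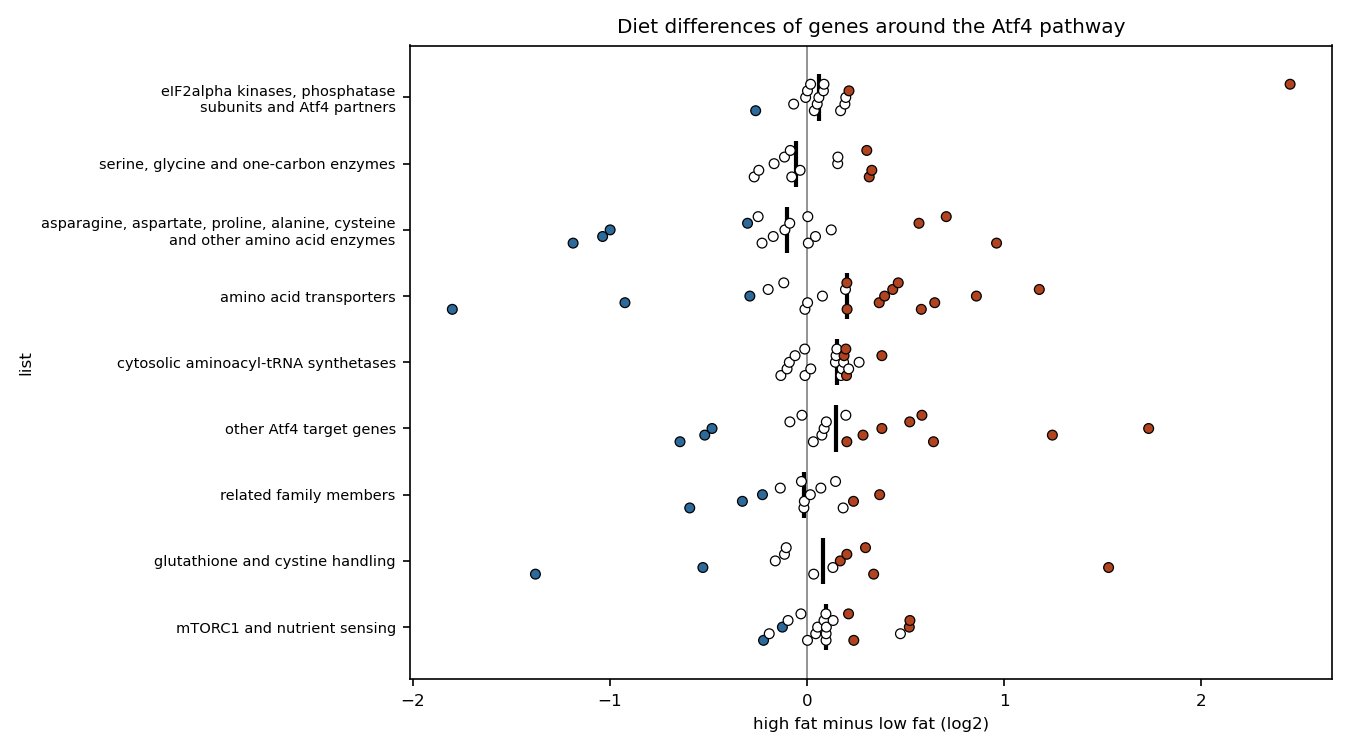
Difference between diets (high fat minus low fat, log2, horizontal axis) of every measured gene in 9 lists around the Atf4 pathway; red points passed as higher, blue as lower, white points did not pass, and black bars mark each list's median. Amino acid transporters hold the most genes past the threshold, 10 higher and 3 lower, and aminoacyl-tRNA synthetases span a narrow range, from -0.13 to 0.38, around a median of 0.15.

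Upstream of Atf4, the stress kinases that phosphorylate eIF2alpha did not pass in any of 4 cases. Eif2ak3, which encodes PERK, the kinase of the endoplasmic reticulum, had a difference of 0.17, and Eif2ak4, which encodes GCN2, the kinase that senses uncharged tRNA, of 0.09. Ppp1r15b, a phosphatase subunit that reverses the phosphorylation, was 1.20-fold lower, and Ppp1r15a, the stress-induced subunit, did not pass at 0.08. Among partner factors, Atf3 was 5.47-fold higher (2.45 ± 0.19, SE), and Nfe2l2, which encodes the antioxidant regulator Nrf2, was 1.16-fold higher. In all, 2 of 15 measured genes of this list were higher and 1 lower, with a median difference of 0.06. These counts lie near the shares of all genes, 12.4% higher and 9.13% lower. Gene Ppp1r15b lost its call without high fat mouse 3, 4 or 5 or low fat mouse 1 or 2 (-0.25 to -0.23), and gene Nfe2l2 without low fat mouse 3 (0.20). With all mice, gene Ppp1r15b also lost its call with array weights (-0.23) and with muscle markers as covariates (-0.25).

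Among serine, glycine and one-carbon genes, Phgdh was alone in passing as lower with the values as deposited. Beyond Phgdh and Psat1, 3 of 12 genes were higher, all of them enzymes of mitochondrial folate metabolism, and 0 were lower, while the mitochondrial Mthfd2l, Aldh1l2, Gldc and Amt did not pass. Shmt2, which turns serine into glycine in mitochondria, measured 9.43, 9.42, 9.46, 9.31 and 9.37 in high fat mice, against 9.05, 9.03, 9.15 and 9.14 in low fat mice, a difference of 0.30 ± 0.05 (SE) with a limma adjusted p of 0.0013. Mthfd1l was 1.26-fold and Mthfd2 1.24-fold higher, with limma adjusted p of 0.0105 and 0.0261. All 5 high fat mice lay above all low fat mice in these 3 genes. Psph, which completes serine synthesis, did not pass at -0.11. Gldc, of the glycine cleavage system, was at -0.27 (limma adjusted p = 0.0714), and the list's median was -0.06. In this list 1 gene was lower with quantile normalization repeated, with arrays centred on their medians, and without high fat mouse 2 or low fat mouse 2 or 3. The calls of genes Mthfd2 and Mthfd1l were lost without high fat mice 1 and 2 (0.22 and 0.30), and gene Mthfd2 also lost its call without high fat mouse 2 (0.31), low fat mouse 1 (0.27) or low fat mouse 4 (0.29).

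**Figure D4:**
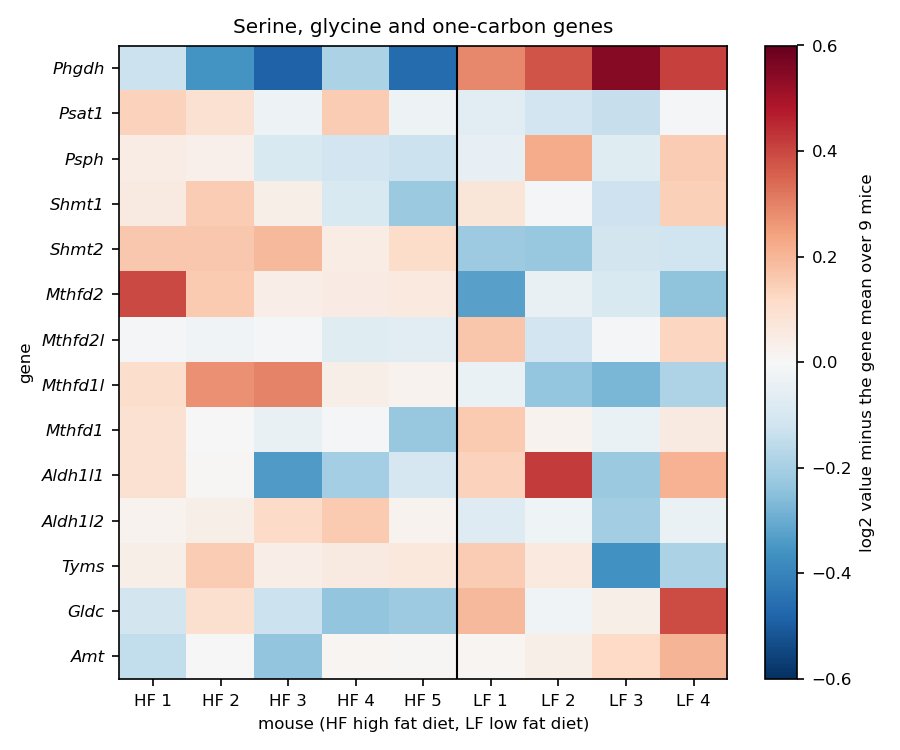
Log2 value minus the gene's mean over 9 mice (colour) for 14 serine, glycine and one-carbon genes (rows) in each mouse (columns, HF high fat and LF low fat). Phgdh is low in all 5 high fat mice and high in all 4 low fat mice, whereas Shmt2, Mthfd2 and Mthfd1l show the opposite pattern and Psat1 a weak one.

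Other amino acid enzymes held large differences in both directions, with 3 of 16 higher and 4 lower and a median of -0.10. Gpt2, mitochondrial alanine aminotransferase, was 2.28-fold lower, Bcat2, the mitochondrial branched chain aminotransferase, 2.05-fold, Prodh, which starts proline breakdown, 2.00-fold, and Glul, glutamine synthetase, 1.23-fold lower. Got1, the cytosolic aspartate aminotransferase, was 1.95-fold higher, Aldh18a1, which starts proline synthesis, 1.63-fold, and Bcat1, the cytosolic branched chain aminotransferase, 1.48-fold. The proline genes were mixed, with differences of 0.71 for Aldh18a1 and -0.999 for Prodh, and -0.23 for the synthesis gene Pycrl, which did not pass (limma adjusted p = 0.0667) although all high fat mice lay below all low fat mice. The branched chain aminotransferases lay on opposite sides, with 0.57 for Bcat1 and -1.04 for Bcat2. Among the 7 genes that passed, limma adjusted p ran from 8.49e-05 for Gpt2 to 0.0319 for Glul, and gene Glul lost its call without high fat mouse 3, 4 or 5 or low fat mouse 2 or 4 (-0.30 to -0.23). Without high fat mice 1 and 2 gene Bcat1 no longer passed (0.54).

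Amino acid transporters were higher in 10 of 19 and lower in 3, with a median of 0.20. Slc6a6, the taurine transporter, was 2.26-fold higher, Slc7a7, the light chain of a cationic amino acid exchanger, 1.81-fold, Slc36a1, a proton-coupled carrier of small amino acids, 1.50-fold, and Slc7a5, the light chain of the large neutral amino acid exchanger LAT1, 1.35-fold. Slc3a2, the heavy chain that pairs with Slc7a5 and with Slc7a11, was 1.15-fold higher (limma adjusted p = 0.0451), but gene Slc3a2 lost its call without high fat mouse 1, 2, 3 or 4 or low fat mouse 2, 3 or 4 (0.16 to 0.22). With all mice, gene Slc3a2 also lost its call with quantile normalization repeated (0.17) and with arrays centred on their medians (0.16). In all, gene Slc3a2 lost its call in 14 of 20 alternatives. The glutamate transporter gene Slc1a3 was 3.48-fold lower, Slc43a1, a large neutral amino acid transporter, 1.90-fold, and Slc1a5, the glutamine carrier ASCT2, 1.22-fold. With the mean of its probe sets the difference of gene Slc1a5 was -0.54, against -0.29. In Slc1a3 the values were separated widely, at 9.32 ± 0.34 for high fat mice (SD, n = 5) against 11.12 ± 0.26 for low fat mice (SD, n = 4).

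Aminoacyl-tRNA synthetases, which charge tRNAs and many of which Atf4 induces, showed only small differences, from -0.13 to 0.38, with 4 of 19 higher and 0 lower and a median of 0.15. With quantile normalization repeated 2 were higher and 2 lower, and 2 were higher with arrays centred on their medians or without high fat mouse 1 or 2 or low fat mouse 3, while 7 were higher once dim genes were left out. Nars, which charges tRNA with asparagine, was 1.30-fold higher (0.38 ± 0.08, SE), Yars 1.15-fold, Farsa 1.15-fold and Iars 1.14-fold. Nars and Asns, which use and make asparagine, therefore lay on opposite sides. Gene Farsa lost its call without high fat mouse 1, 2 or 3 or low fat mouse 1, 3 or 4 (0.15 to 0.20), and gene Iars without high fat mouse 1, 2, 3 or 5 or low fat mouse 3 or 4 (0.16 to 0.19). With all mice, genes Farsa and Iars also lost their calls with quantile normalization repeated and with arrays centred on their medians. Without high fat mice 1 and 2 gene Yars did not pass (0.16).

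Other known Atf4 targets were higher in 8 of 18 and lower in 3, with a median of 0.15. Nars and Slc3a2, described above in other lists, are among the 8. Gadd45b, a stress-induced growth arrest gene, was 3.33-fold higher, Cdkn1a, which encodes the cell cycle inhibitor p21, 2.37-fold, Vldlr, a lipoprotein receptor, 1.50-fold, and the autophagy receptor gene Sqstm1 1.22-fold. Stc2, a secreted glycoprotein, was 1.56-fold lower, Vegfa 1.43-fold and Eif4ebp1, a repressor of cap-dependent translation, 1.40-fold. Fgf21, a hormone that Atf4 induces in liver, did not pass (difference 0.10, limma adjusted p = 0.244). Without high fat mice 1 and 2 gene Vegfa did not pass (-0.51). Several of these genes also respond to other regulators, so they do not report on Atf4 alone.

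The glutathione and cystine handling list also holds genes that do not make or use glutathione, among them Hmox1, Txnrd1 and Slc3a2. Beside Chac1 and Slc7a11, its genes were higher in 5 of 12 and lower in 2, with a median of 0.08. These counts were 3 higher and 5 lower with quantile normalization repeated or arrays centred on their medians, and 3 were higher without high fat mouse 4 or low fat mouse 4. Slc3a2, described above, is among the 5. Hmox1, heme oxygenase, was 2.89-fold higher, Txnrd1, thioredoxin reductase, 1.26-fold, Gclm, the modifier subunit of the enzyme that limits glutathione synthesis, 1.23-fold, and Gss, glutathione synthetase, 1.12-fold. Gsta4, a glutathione transferase that clears lipid aldehydes, was 2.60-fold lower, and the microsomal transferase gene Mgst1 1.44-fold lower. Gene Gss lost its call without high fat mouse 4 or low fat mouse 1 or 4 (0.14 to 0.16), and gene Txnrd1 without high fat mice 1 and 2 (0.28). With all mice, gene Gss also lost its call with either other scaling (0.12).

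In the nutrient sensing list around mTORC1, 4 of 19 genes were higher and 2 lower, with a median of 0.10, and 2 were higher with either other scaling. Deptor, an inhibitor of mTOR, was 1.44-fold higher (limma adjusted p = 0.000115) and the arginine sensor family gene Castor2 1.16-fold. With the mean of its probe sets the difference of gene Deptor was 0.30, against 0.52. The calls of Rragd (0.52), Tfeb (0.24), Mtor (-0.12) and Nprl2 (-0.22) were lost in some fits with 1 mouse left out. With all mice, genes Rragd and Tfeb also lost theirs with either other scaling and with array weights, and gene Mtor with array weights. Gene Rragd lost its call without high fat mouse 1, 2 or 3 or any low fat mouse (0.39 to 0.56, and 0.28 without high fat mice 1 and 2), gene Tfeb without high fat mouse 2 or 3 or low fat mouse 1, 2 or 4 (0.20 to 0.23), gene Mtor without high fat mouse 1, 2, 3 or 5 or any low fat mouse (-0.13 to -0.10), and gene Nprl2 without low fat mouse 2 or 3 (-0.21 to -0.18). Among relatives of the 10 genes, 2 of 13 were higher and 3 lower, with a median of -0.013, and 1 was higher with either other scaling. Creb3, a transcription factor of the same bZIP class, was 1.29-fold higher and Sesn1 1.18-fold, whereas Cebpa, a master factor of adipocytes, was 1.51-fold lower, Chac2, the second glutathione-degrading enzyme, 1.26-fold and Atf7 1.17-fold. Gene Sesn1 lost its call without high fat mouse 1, 2 or 3 or any low fat mouse (0.19 to 0.26), gene Atf7 without high fat mouse 3 or low fat mouse 2 or 3 (-0.21 to -0.20), and gene Chac2 without low fat mouse 4 (-0.29). With all mice, gene Sesn1 also lost its call with either other scaling and with array weights.

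Genes with the most similar pattern were found as those with the smallest mean absolute difference over the 9 arrays after each gene was centred on its own mean. For Asns these were Gbe1 (0.064 log2 units) and Car5b (0.077), and for Phgdh they were Ccdc69 (0.050) and Cbx7 (0.054). For Slc7a11 they were Fam114a1 (0.056) and Nfkb2 (0.057), for Atf4 they were H2-Eb1 (0.035) and Ttc7 (0.036), and for Atf5 they were Mt1 (0.039) and Olfr1356 (0.042). For Chac1 they were 4930546K05Rik (0.053) and Igfals (0.053), for Psat1 Ncaph2 (0.023) and Bud31 (0.025), and for Sesn2 Ppp1r16b (0.058) and Rab3a (0.073). For Ddit3 they were Mrm2 (0.034) and Rskr (0.039), and for Trib3 Fam47e (0.015) and Dppa1 (0.016). None of the 10 genes had another of the 10 among its 2 closest, which were picked from all measured genes. With so many candidates, and a distance that grows with unlike sizes of change, this does not show that their patterns differ. A small distance is easily reached by genes that vary little, as Trib3 does.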

How the data were processed

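Transcript levels were measured on Affymetrix Mouse Gene 2.0 ST arrays, 1 mouse each. The deposited values are log2 expression, 1 per probe set and array. RMA, limma and R 3.5.0 are named, without roles, per the submitters' processing notes. For annotation version and filters, the processing was not given in the sources used here. Of 33793 probe sets, 23521 carried 1 symbol and gave 22180 genes; Entrez identifiers changed 0 symbols (GRCm38.p6).

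Diet was tested with limma 3.58.1 (lmFit, eBayes) in R 4.3.3, without covariates. The number of arrays limits precision. The fit was tested on simulated data. These held 22180 genes with noise drawn independently per gene, and 50 genes were changed at each of log2 0.25, 0.5, 1 and 2. There it recovered 18 of 50 changes of log2 0.25, 42 of 50 of 0.5 and 49 of 50 of 1. Of the 175 calls in that test, 16 fell on unchanged genes. The changed share was far below the 21.5% of genes that passed between the diets. The adjusted p depends on that share, so these rates do not describe the comparison of the diets.

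The 10 genes and all lists were chosen with earlier results of these data known. The rule named all 10 genes, in each list every gene past the threshold where they were 5 or fewer and otherwise the 4 with the smallest p in each direction, and the 2 genes most like each of the 10; other named genes were chosen after their values were seen. Of 154 list entries 143 were measured, 3 under another name of the same gene. Alternatives covered normalization, centring, dim genes, probe choice, rows tested, variance model, array weights, mouse number, muscle markers and left-out mice.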

Additional observations from a re-analysis of the deposited data

Results flagged for a closer look

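Among the 58 genes named from the 10 genes and the lists, each diet group was examined for a mouse that lay far from the rest of its group, and 3 of 116 groups held one, where chance flags about 1 in 20. Slc36a1 stood at 8.67 in low fat mouse 4, with low fat mice 1 to 3 at 9.02 to 9.06. Yars stood at 8.49 in low fat mouse 3, with the rest of that group at 8.60 to 8.61. Gss stood at 7.63 in high fat mouse 4, with the rest of that group at 7.53 to 7.56. None of the 10 genes of the response held such a value.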

How the results depend on the processing

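Asns, Phgdh, Atf4 and Slc7a11 kept their direction and their side of the threshold in every alternative run for them. Slc7a11 was not tested among the brighter genes, and its smallest difference, 0.29, came with the mean of its probe sets. With quantile normalization repeated, 2 of the 10 genes were higher, since Chac1 and Atf5 were lost. With 1 mouse left out, 3 to 4 were higher and 2 lower. The sign of gene Trib3 turned to -0.033 with quantile normalization repeated, -0.030 with arrays centred on their medians and -0.0068 without low fat mouse 4 (-0.0068 to 0.038 with 1 mouse left out). Over all genes, 2153 to 2604 were higher and 1526 to 1826 lower with 1 mouse left out. Without high fat mice 1 and 2, 1716 of all genes and 22 of the 140 list genes were higher; with arrays centred on their medians, 3056 genes were lower, against 2026; and a fold threshold of 1 on the log2 scale left 283 higher and 94 lower. The cause of these changes was not tested. The labels do not say whether mice of the same number were handled together. Deviations of same-numbered mice correlated at 0.0479 to 0.126, and 1 of 4 low fat mice matched its own number best. So few pairs cannot decide whether a number marks shared handling, which was not tested. With the mouse number as a block, 2421 genes were higher and 1615 lower, and gene Atf5 no longer passed (0.24, limma adjusted p = 0.0648). The settings for the list genes were chosen after seeing the data. Whether dim genes such as Slc7a11 exceed background was not determined.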
